A study of Homo sapiens with 8 samples.

Results

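Expression of 29 genes for cholesterol synthesis and its control was examined in hCMEC/D3, a clonal endothelial line from human brain microvessels that was immortalised with telomerase and a viral large T antigen and is used in culture as a model of the blood-brain barrier. The genes were chosen by name for their role, and all 29 were found among the 23346 genes of the deposited table. The 8 libraries of polyadenylated RNA were labelled as replicates of this line and formed 1 group, with no treatment or other genotype named, so there was no comparison between conditions. The labels did not say whether they came from separate cultures, and the spread between them may be technical. They also did not give the medium, the serum or the passage.

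Cells build cholesterol from acetyl units through mevalonate, squalene and lanosterol. The rate is set by SREBP transcription factors, which are held in the endoplasmic reticulum by the sterol sensor SCAP and the INSIG anchors while membrane sterol is high, and which move to the Golgi for cleavage and then to the nucleus when sterol is low. SREBP-2, the product of SREBF2, mainly drives the cholesterol genes, and SREBP-1, the product of SREBF1, mainly those of fatty acids. Liver X receptors respond to oxysterols in the opposite way and raise genes for sterol export. The brain makes its own cholesterol because the blood-brain barrier keeps out lipoprotein cholesterol from plasma.

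Total counts ranged from 69388544 to 90205244 per library, and all 186768 counts were even, so counting error was taken from halved counts, called read pairs. CPM is the count scaled to the size of the library, RPKM is CPM divided by transcript length, and CQN values are the authors' log2 levels after correction for length and GC content. At a minimum of 1 CPM in every library 11980 genes were detected. All 7 endothelial markers examined were among them (PECAM1, CDH5, VWF, KDR, ENG, MCAM and TIE1), and their summed level was 2995 to 4954 CPM. None of the 8 astrocyte, leukocyte and epithelial markers was detected, and AQP4 had 0 counts in all 8 libraries. The summed pericyte and smooth muscle markers reached 13.2 to 21.6 CPM (3 of 4 detected), and the summed neuronal markers 2.29 to 5.66 CPM, nearly all from SYT1. Replicates 2 and 8 stood apart. They had the most counts (90205244 and 87991662), and levels leaned most towards short transcripts in them, with a slope of -0.23 and -0.34 log2 per doubling of transcript length against -0.11 in replicate 7 and 0.09 to 0.15 in the others. Their endothelial marker sums were also the highest, at 4824 and 4954 CPM against 2995 to 3886 CPM. The part of these differences in the results below was not tested.

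All 29 genes were detected. The lowest count of any of them in any library was 252 for HSD17B7 in replicate 3, or 126 read pairs, for which counting error is 8.91% of the value. By mean RPKM, 24 of the 29 lay above the median detected gene, 16 above the upper quartile and 7 above the top decile. Levels spanned 2.44 RPKM for HSD17B7 to 266 RPKM for NPC2. Within the mevalonate pathway mean levels ran from 12.3 RPKM for MVK to 171 RPKM for FDPS, and from squalene to cholesterol they ran from 2.44 RPKM for HSD17B7 to 148 RPKM for FDFT1, as the plot of RPKM by gene shows.

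**Figure D1:**
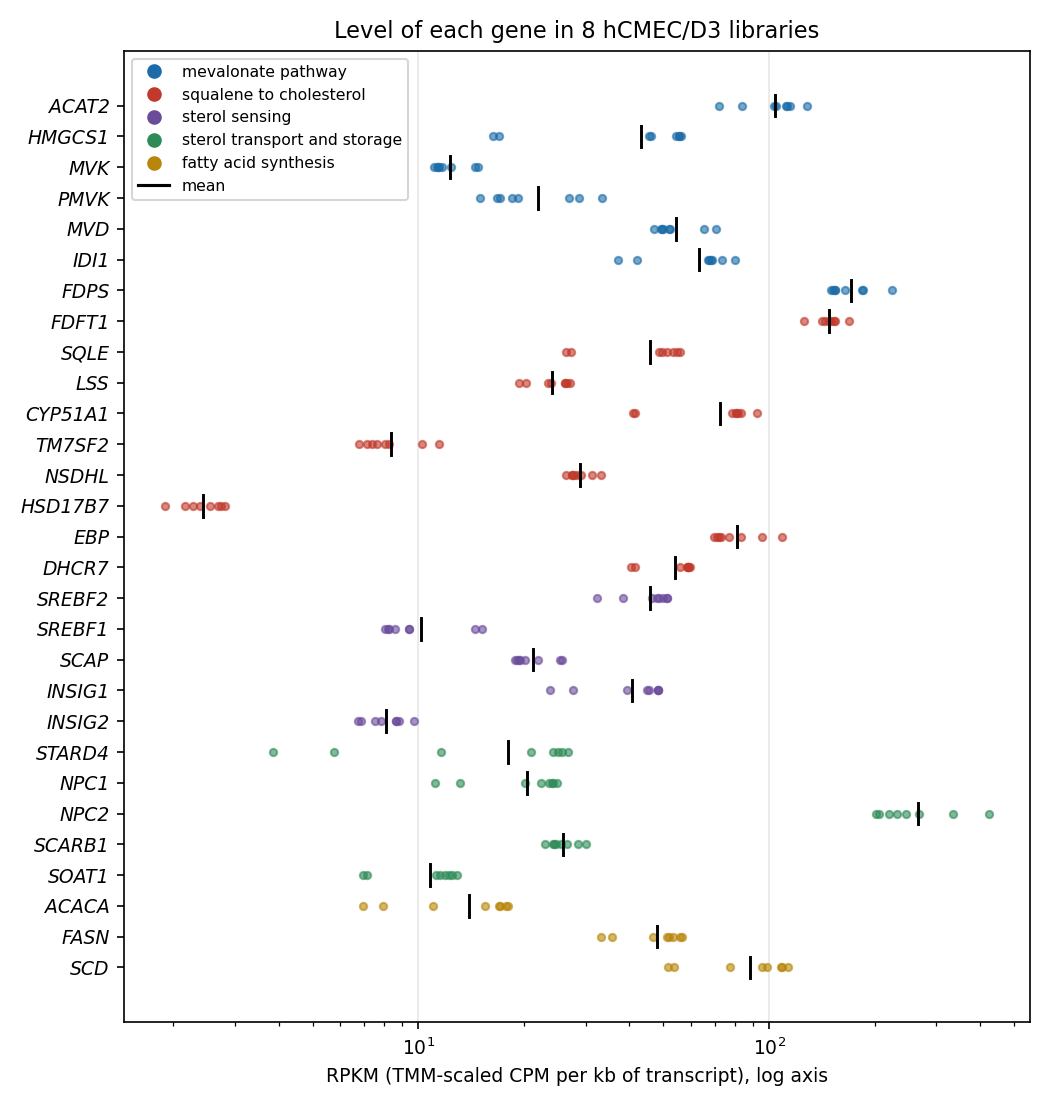
RPKM (log axis) of each of the 29 genes, 1 point per library and a black bar at the mean of 8, coloured by role. NPC2 had the highest mean, 266 RPKM, and HSD17B7 the lowest, 2.44 RPKM, and several genes such as HMGCS1, SQLE, CYP51A1 and STARD4 had a pair of low points away from the rest.

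Many of the genes had their lowest levels in replicates 2 and 8. On the CQN scale these were the 2 lowest of the 8 libraries for 23 of the 29 genes (79.3%), whereas the same order held for 22.2% of all 11980 detected genes. The remaining 6 were PMVK, INSIG2, SCAP, SREBF1, NPC2 and SOAT1. The median deviation of the 29 genes from their own means was -0.43 in replicate 2 and -0.39 in replicate 8 (log2), against 0.07 to 0.21 in the other 6 libraries. Over all detected genes the medians were 0.02 and 0.02 in replicates 2 and 8. This order was noticed in the data, so it is given as a description with no test. In bulk RNA, fewer cells of a type and less RNA per cell cannot be told apart.

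**Figure D2:**
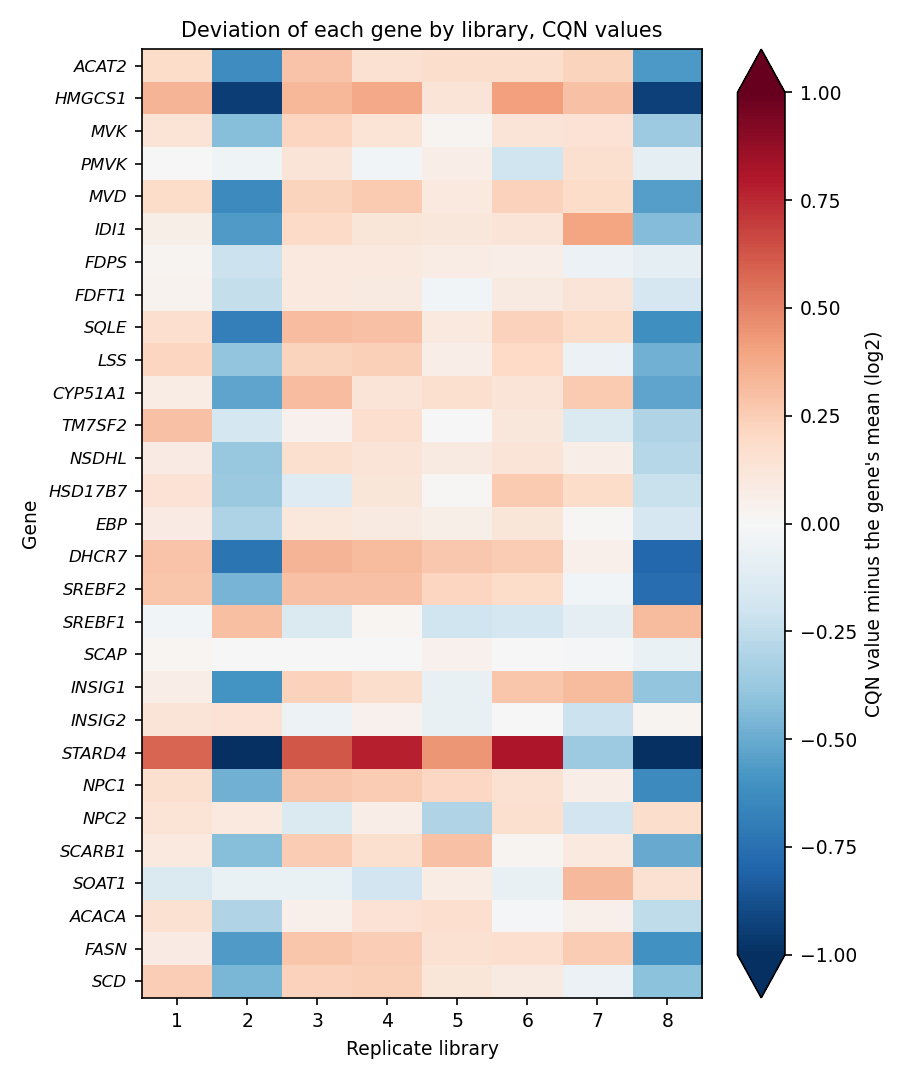
CQN value minus the gene's own mean (log2, colour) for the 29 genes in rows, ordered by role, and the 8 libraries in columns. Replicates 2 and 8 are blue for most genes, SREBF1 is red in both, and SCAP is nearly white in all 8.

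The scale mattered for some genes. On CPM, which carries the lean towards short transcripts, replicates 2 and 8 were the 2 lowest for 16 of the 29 genes (all genes, 29.8%), and the 2 highest for PMVK, FDPS, TM7SF2, SCAP, SREBF1 and NPC2 (6 of 29, all genes 33.7%). After a fitted length and GC trend was taken out of the CPM values of each library, they were the 2 lowest for 22 (all genes, 23.6%) and the 2 highest for INSIG2, SCAP, SREBF1 and NPC2 (4 of 29, all genes 25.2%). On all 3 scales the order held for 15 genes, which were HMGCS1, ACAT2, IDI1, FDFT1, SQLE, LSS, CYP51A1, DHCR7, INSIG1, SREBF2, STARD4, NPC1, FASN, SCD and ACACA. For PMVK, INSIG2, SCAP, SREBF1 and NPC2 it held on none. The matching shares of all detected genes over the 3 scales together were not computed. FDPS and TM7SF2 were highest in replicates 2 and 8 on CPM but lowest on CQN, so their direction depended on the scale. With the trend removed FDPS was lowest in them and TM7SF2 was neither lowest nor highest.

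**Figure D3:**
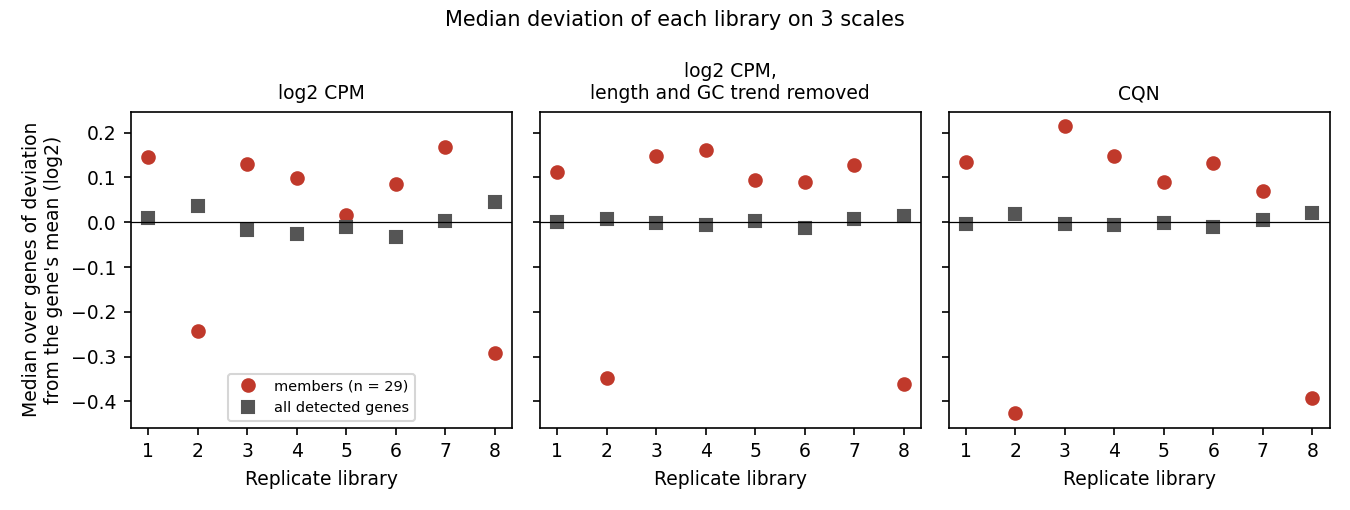
Median over genes of the deviation from each gene's mean (log2) in each library, for the 29 genes (red) and all detected genes (grey), on log2 CPM, log2 CPM with the length and GC trend removed, and CQN values. The red points of replicates 2 and 8 lie below 0 on all 3 scales, at -0.43 and -0.39 on CQN, while the grey points stay near 0.

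Promoter sequence was compared to describe motifs that these genes share. The RefSeq promoters (GRCh38.p14, from 250 bases before to 50 after a start) held an entry for 24 of the 29 genes and none for FDFT1, SQLE, ACAT2, SCARB1 and FASN. The 3 motifs below were searched on both strands, and matches could overlap. The sterol regulatory element consensus TCACNCCAC, the site SREBPs are known to bind, was found in 1 of the 24 genes, SREBF2, and in 1.39% of the 27305 genes of the table. Sites that differ from this consensus were not searched. The NF-Y box CCAAT was found in 18 of 24 (75%), beside 39.7% of all genes. The Sp1 box GGGCGG was found in 23 of 24 (95.8%), beside 48.3% of all genes, and NSDHL lacked it. These shares of all genes include genes that were not detected here. No Sp1 share was computed for detected genes alone. NF-Y and Sp1 are general factors that are known to act beside SREBPs, and a match of letters is not a bound site. The CCAAT box was present in 16 of the 18 genes that were lowest in replicates 2 and 8 on CQN values and in 2 of the other 6 (NPC2 and SOAT1). Among all detected genes with a promoter entry, those shares were 40.7% of 1947 and 44.3% of 6660. The split by order was noticed in these same data, so these counts are a description with no test.

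The 250 bases before the start are shown for SREBF2, the only gene with a promoter entry that matched the sterol element consensus. They are also shown for STARD4 and HMGCS1, whose spread between libraries was the largest, and for SREBF1, which was highest in replicates 2 and 8. They run 5′ to 3′ on the gene's own strand, and capitals mark matches to the 3 motifs. SREBF2 lies at chr22:41832855-41833104 (plus strand), STARD4 at chr5:111512536-111512785 (minus strand), HMGCS1 at chr5:43313413-43313662 (minus strand, 1 of 2 starts in the table) and SREBF1 at chr17:17836987-17837236 (minus strand).
SREBF2: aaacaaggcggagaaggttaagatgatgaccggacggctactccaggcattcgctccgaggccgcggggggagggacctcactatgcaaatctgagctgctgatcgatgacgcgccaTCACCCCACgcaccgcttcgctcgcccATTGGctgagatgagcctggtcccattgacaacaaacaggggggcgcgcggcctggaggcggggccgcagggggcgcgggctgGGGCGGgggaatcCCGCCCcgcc
STARD4: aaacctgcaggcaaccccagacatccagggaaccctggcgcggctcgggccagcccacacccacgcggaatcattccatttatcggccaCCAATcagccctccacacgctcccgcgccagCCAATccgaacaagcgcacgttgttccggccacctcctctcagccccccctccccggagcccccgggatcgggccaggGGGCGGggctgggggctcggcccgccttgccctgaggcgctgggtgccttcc
HMGCS1: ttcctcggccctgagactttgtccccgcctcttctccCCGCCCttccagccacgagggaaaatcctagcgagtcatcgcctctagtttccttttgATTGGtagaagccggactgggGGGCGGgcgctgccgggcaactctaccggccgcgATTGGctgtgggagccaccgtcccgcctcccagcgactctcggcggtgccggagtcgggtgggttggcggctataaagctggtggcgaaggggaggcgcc
SREBF1: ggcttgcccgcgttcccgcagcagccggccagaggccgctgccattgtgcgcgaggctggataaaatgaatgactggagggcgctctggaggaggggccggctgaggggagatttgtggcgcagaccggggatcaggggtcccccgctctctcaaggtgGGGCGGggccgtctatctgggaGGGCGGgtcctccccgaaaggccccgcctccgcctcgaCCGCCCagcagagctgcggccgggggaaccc
The match to the sterol element consensus in SREBF2 lay 133 to 125 bases before the start, with an NF-Y box at 106 to 102. STARD4 had NF-Y boxes at 161 to 157 and 130 to 126 bases before the start, and HMGCS1 at 155 to 151 and 100 to 96. The other start of HMGCS1 had 2 Sp1 boxes and no NF-Y box in the 250 bases before it. SREBF1 had 3 Sp1 boxes and no match to the other motifs in this window.

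In the mevalonate pathway, 6 of 7 genes were lowest in replicates 2 and 8 on CQN values and 3 of 7 on CPM. HMGCS1 (GRCh37, chromosome 5, 43289493 to 43313595, minus strand, 11 exons), which joins acetyl and acetoacetyl groups into HMG-CoA, had 300.4, 91.1, 296, 290.4, 243, 297, 246 and 87.6 CPM in replicates 1 to 8. Replicates 2 and 8 were apart from the other 6 libraries with no overlap, and the highest value was 3.43 times the lowest. On the CQN scale HMGCS1 was 7.21 and 7.22 in replicates 2 and 8 and 8.28 to 8.56 in the others, so the gap remained after the authors' correction. ACAT2, the cytosolic thiolase that makes acetoacetyl-CoA, stood at 104 ± 18.0 RPKM (SD, n = 8), and its CQN value was 7.79 and 7.84 in replicates 2 and 8 against 8.56 to 8.70. ACAT2 shares part of its span with TCP1, and the use of strand in counting is not given in the sources used here.

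Mevalonate kinase, MVK, was the lowest gene of this branch at 12.3 ± 1.5 RPKM, and its CPM was 32.0, 35.03, 33.1, 32.5, 31.4, 32.3, 41.9 and 41.2 in replicates 1 to 8. It was not low in replicates 2 and 8 on CPM but was on CQN, at 5.81 and 5.88 against 6.26 to 6.45. The other kinase, PMVK, had 22.0 ± 6.77 RPKM and overlapped between libraries on CQN (5.28 to 5.64). MVD, the decarboxylase that yields isopentenyl diphosphate, had 54.4 ± 8.61 RPKM, and on CQN it was 7.46 and 7.54 in replicates 2 and 8 against 8.19 to 8.36. IDI1, which isomerises that product, had 188, 102, 201, 184, 185, 187, 219.6 and 115 CPM, and replicates 2 and 8 lay below the rest. FDPS, which builds farnesyl diphosphate, was the highest gene of the branch at 171 ± 25.6 RPKM. FDPS was also among the 3 steadiest of the 29 on CQN (8.84 to 9.15, SD 0.11), although its CPM of 219, 263, 215, 218, 233, 212, 260.5 and 317 was highest in replicates 2 and 8. The annotation names 8 pseudogenes of FDPS and 3 of IDI1, so the levels of both are uncertain where reads also matched those copies.

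From squalene to cholesterol, all 9 genes were lowest in replicates 2 and 8 on CQN and 5 of 9 on CPM. FDFT1, the squalene synthase, had 148 ± 12.3 RPKM and 313, 257, 312, 305, 294, 302, 345 and 288 CPM. Its 2 lowest libraries were 2 and 8, but by a small margin. SQLE, the squalene epoxidase and a slow step of the pathway, had 157, 77.9, 165, 162, 144, 152, 147 and 80.9 CPM. Its values in replicates 2 and 8 did not overlap with the other 6 libraries, and on CQN they were 7.11 and 7.18 against 7.89 to 8.10. CYP51A1, the lanosterol demethylase, had a like pattern, with 131 and 129 CPM in replicates 2 and 8 against 247 to 291 CPM, and 3 pseudogenes are annotated. LSS, which closes the sterol rings, had 24.1 ± 2.95 RPKM and 98.9 and 94.7 CPM in those libraries against 114 to 132 CPM.

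DHCR7, the last reductase on the way to cholesterol, had 156, 106, 154, 154, 154, 147, 153 and 109 CPM. On the CQN scale its gap was wider, with 7.27 and 7.22 in replicates 2 and 8 against 8.05 to 8.34, and its SD of 0.48 was the third largest of the 29. EBP, the sterol isomerase, stood at 81.2 ± 14.1 RPKM and NSDHL, a demethylating dehydrogenase, at 28.8 ± 2.28 RPKM. On CQN both were lowest in replicates 2 and 8 by a small margin (0.18 for EBP and 0.35 for NSDHL between the nearest values, log2). TM7SF2, a sterol C14 reductase, had 8.36 ± 1.63 RPKM and a margin of only 0.032. HSD17B7, a sterol ketone reductase, had 2.44 ± 0.315 RPKM and a margin of 0.089, and 2 pseudogenes of HSD17B7 are annotated. These late enzymes thus ranged from 2.44 to 81.2 RPKM.

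Among the sterol-sensing genes, SREBF2 and INSIG1 were lowest in replicates 2 and 8 while SREBF1, SCAP and INSIG2 were not. SREBF2 (GRCh37, chromosome 22, 42229106 to 42302375, plus strand) had 268, 201, 262, 267, 254, 251, 243 and 169 CPM, with no overlap between replicates 2 and 8 and the rest. INSIG1 (chromosome 7, 155089486 to 155101945, plus strand), which is itself an SREBP target, had 130.3, 69.2, 140.2, 133, 114, 140.0, 140.2 and 80.05 CPM. On CQN it was 6.95 and 7.16 against 7.48 to 7.87.

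SREBF1 (chromosome 17, 17714663 to 17740325, minus strand) went the other way, at 42.1, 71.1, 40.3, 46.0, 39.3, 40.5, 46.1 and 74.4 CPM. On CQN it was 6.33 and 6.35 in replicates 2 and 8 against 5.83 to 6.05, and it was the only one of the 29 for which these were the 2 highest libraries (all genes, 26.5%). SREBF1 shares part of its span with RAI1, so the assignment of its reads is uncertain. SCAP, the sterol sensor, was the steadiest gene on CQN, with 7.00, 6.98, 6.98, 6.98, 7.02, 6.98, 6.96 and 6.91 in replicates 1 to 8 (SD 0.03). Its CPM of 81.6, 109, 80.2, 82.8, 85.9, 82.4, 93.3 and 108 was highest in replicates 2 and 8. INSIG2, the anchor that is not known as an SREBP target, had 34.7, 26.8, 31.3, 30.8, 27.8, 30.7, 24.5 and 24.0 CPM, and on CQN replicates 2 and 8 lay within or just above the range of the others (5.85 and 5.74 against 5.49 to 5.83).

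Among the transport and storage genes, STARD4 (GRCh37, chromosome 5, 110834022 to 110848157, minus strand, 6 exons) varied most of all 29. STARD4 encodes a soluble protein that carries cholesterol between membranes and is an SREBP-2 target. Its CPM was 112, 26.5, 116, 119, 96.8, 123, 53.6 and 17.8 in replicates 1 to 8. Replicates 2 and 8 were lowest, replicate 7 lay between them and the other 5, and the highest value was 6.92 times the lowest. The same order held on CQN, at 7.55, 5.81, 7.60, 7.75, 7.42, 7.78, 6.61 and 5.26. STARD4 shares part of its span with LOC100505678 in the table.

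NPC1 and NPC2 together move cholesterol out of lysosomes. NPC1 had 112, 62.5, 118, 115, 114, 107, 95.8 and 53.0 CPM, lowest in replicates 2 and 8, while NPC2 had 201, 274, 169, 180.2, 166, 190.2, 219 and 347 CPM, highest there. On CQN the order of NPC1 held (6.36 and 6.20 against 6.91 to 7.11), and that of NPC2 did not, at 8.82 and 8.90 against 8.43 to 8.88. SCARB1, the HDL receptor, had 25.8 ± 2.38 RPKM, and on CQN it was 6.89 and 6.81 against 7.34 to 7.61. SOAT1, which esterifies cholesterol for storage, had 10.8 ± 2.36 RPKM. On CPM it was lowest in replicates 2 and 8 with no overlap (47.5 and 48.9 CPM against 77.0 to 88.0 CPM), whereas on CQN replicates 2 and 8 (5.90 and 6.12) lay within the range of the others (5.78 to 6.29).

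The 3 genes of fatty acid synthesis were lowest in replicates 2 and 8 on each scale. ACACA, the acetyl-CoA carboxylase, had 180.1, 79.4, 172, 178, 169.5, 156, 110.1 and 69.6 CPM. Its SD was 0.56 on log2 CPM and 0.18 on CQN, with 6.53 and 6.58 in replicates 2 and 8 against 6.82 to 7.00. FASN, the fatty acid synthase, had 395, 302, 471, 479, 434, 438, 450.4 and 281 CPM, and on CQN it was 8.35 and 8.31 against 9.0 to 9.20. SCD, the stearoyl-CoA desaturase, had 592, 281, 570.4, 567, 519, 499, 406 and 269 CPM, and on CQN it was 8.54 and 8.60 against 8.94 to 9.24. A single pseudogene of SCD is annotated.

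Variation between the libraries was tested for every detected gene against the trend of genes of like abundance, with edgeR's goodness-of-fit test and Benjamini-Hochberg adjustment over all 11980 genes. Of the 29 genes, 2 passed (6.90%), beside 4.66% of all detected genes, so in this fit the share of the 29 was near the background. They were STARD4 (edgeR adjusted p = 1.63e-07) and HMGCS1 (edgeR adjusted p = 0.00482). At an unadjusted p under 0.05 there were 3 of 29 (10.3%), the additional gene being ACACA, against 13.1% of all genes. With each library's length and GC trend removed, 5 of 29 passed, beside 6.57% of all genes, and the additional genes were SQLE, DHCR7 and INSIG1. HMGCS1 did not pass without replicate 2 (adjusted p = 0.0932) or without replicates 2 and 8 (adjusted p = 1), whereas STARD4 passed in every one of these fits.

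The spread of the genes was compared with that of all detected genes. On log2 CPM the median SD of the 29 was 0.27 and that of all detected genes 0.28. On CQN the median of all genes was 0.16, while that of the 29 stayed at 0.29, and 23 of the 29 exceeded the median of all genes. The largest SDs on CQN were those of STARD4 (0.97), HMGCS1 (0.59) and DHCR7 (0.48), and the smallest those of SCAP (0.03), FDPS (0.11) and INSIG2 (0.12). Without replicates 2 and 8 the median SD of the 29 on CQN was 0.099, that of all genes was 0.12, and 12 of the 29 exceeded it.

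Ratios within a library were tested for 8 pairs on log2(RPKM + 0.1), by flipping signs in an exact permutation test (two-sided, 8 libraries). Each pair had the same sign in 8 of 8 libraries, with an exact p of 0.00781 and an adjusted p of 0.00781 over the 8 pairs, the smallest this test can give. Any pair with the same sign in all 8 libraries gets this p, so it says nothing on the size of a ratio. INSIG1 exceeded INSIG2 by 2.28 ± 0.34 (SD, n = 8) and SREBF2 exceeded SREBF1 by 2.18 ± 0.60. SREBF2 over SREBF1 was 2.29 to 2.59 in 6 libraries but 1.399 and 1.08 in replicates 2 and 8. SCAP lay below SREBF2 by a log2 ratio of -1.10 ± 0.41, and this gap was narrowest in replicates 2 and 8 (-0.58 and -0.34).

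NPC2 exceeded NPC1 by 3.71 ± 0.81 per length. The size of this ratio depended on the length and scale used, since it was 2.90 with the longest transcripts, 1.18 on CPM and 1.88 ± 0.47 on CQN values, with the same sign in each. FDFT1 exceeded SQLE by 1.74 ± 0.37, with 2.26 and 2.37 in replicates 2 and 8 against 1.46 to 1.77. FASN exceeded ACACA by 1.84 ± 0.33. HMGCS1 exceeded MVK by 1.67 ± 0.87, from 0.17 in replicate 8 to 2.31 in replicate 1. On CQN values the difference of HMGCS1 and MVK was 1.91 ± 0.34. The spread of this ratio between libraries thus depended on the scale, and RPKM keeps the lean of each library with transcript length. SCD exceeded FASN by 0.84 ± 0.25 per length, but the difference was 0.15 ± 0.25 on CPM (exact permutation adjusted p = 0.117) and 0.086 ± 0.16 on CQN (exact permutation adjusted p = 0.148, n = 8), so the order of these 2 genes rested on the lengths used.

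**Figure D4:**
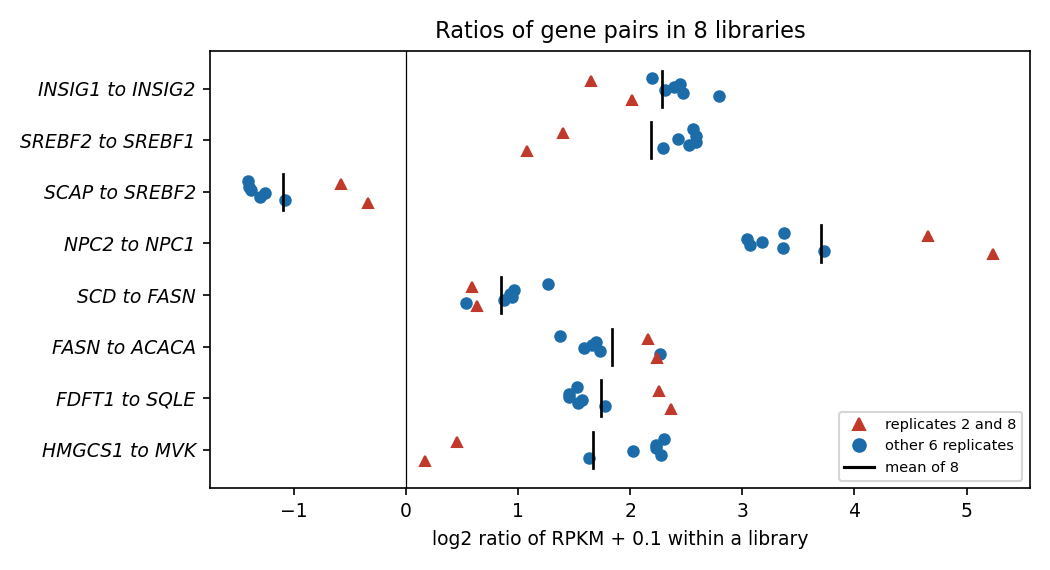
log2 ratio of RPKM + 0.1 within each library for 8 gene pairs, with replicates 2 and 8 as red triangles, the other 6 as blue circles and the mean as a black bar. All points lie on 1 side of 0 for every pair. Replicates 2 and 8 lie outside the range of the rest for every pair but SCD to FASN and FASN to ACACA. Examples are SREBF2 to SREBF1 (1.399 and 1.08) and HMGCS1 to MVK (0.46 and 0.17).

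Since replicates 2 and 8 stood apart, relations between genes were computed over the other 6 libraries only, on CQN values, with exact two-sided permutation over the 720 pairings and adjustment over 8 relations. None passed. The closest were HMGCS1 with SQLE (Pearson's r = 0.733, exact p = 0.0792, adjusted p = 0.494 in 6 libraries) and HMGCS1 with INSIG1 (r = 0.691, exact p = 0.124, adjusted p = 0.494). Spearman's rho was 0.486 for the former (exact p = 0.356) and 0.257 for the latter (exact p = 0.658), with an adjusted p of 0.919 for both. Without replicates 5 and 6, which were farthest from the median of HMGCS1, these r values were 0.477 and -0.654. For HMGCS1 with STARD4, r was 0.375 (exact p = 0.35, adjusted to 0.9) and 0.884 without replicates 5 and 6. The rank correlation of that pair was 0.886 (exact p = 0.0333, adjusted to 0.267). For HMGCS1 with IDI1 and SREBF2, and FASN with SCD, ACACA and SREBF1, r ranged from -0.373 to 0.179 (exact permutation adjusted p from 0.9 to 0.944) and rho from -0.543 to 0.143 (exact permutation adjusted p = 0.919). Leaving out the 2 libraries farthest from the median moved those r values to between -0.823 and 0.859. Across the 406 pairs of the 29 genes the median r in these 6 libraries was 0.178, and across all detected genes it was 0.0015. These pairs share libraries and are not independent, so no p is attached.

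A further 29 genes of sterol and lipid metabolism were examined. Of the 28 in the table, 27 were detected, and SOAT2, the esterifying enzyme of liver and intestine, was not (0.0158 ± 0.0190 CPM). On CQN replicates 2 and 8 were the 2 lowest for 9 of the 27 (all genes, 22.2%), with examples chosen after their values were seen: MSMO1 of late cholesterol synthesis, ACLY and ACSS2, which supply acetyl-CoA, and the desaturases FADS1 and FADS2. They were the 2 highest for 9 of the 27 (all genes, 26.5%). The highest levels were those of FADS2 (148 ± 10.02 RPKM), ACLY (119 ± 22.1) and MSMO1 (82.7 ± 18.5). Apart from SOAT2, ACACB (0.405 ± 0.0602 RPKM) and ELOVL6 (0.796 ± 0.206) were the lowest.

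Of these genes 1 of 27 lay above the variation trend (edgeR adjusted p = 4.91e-04), beside 4.66% of all detected genes. It was ABCG1, a sterol exporter and a known target of liver X receptors. ABCG1 had 12.47, 22.4, 7.44, 10.3, 5.05, 9.18, 5.21 and 23.2 CPM in replicates 1 to 8, highest in replicates 2 and 8. On CQN it was 4.92 and 5.01 there against 2.97 to 4.20. MYLIP, NR1H3 and NR1H2 were named after their values were seen. MYLIP, a ubiquitin ligase and another known liver X receptor target, had 17.6 and 15.5 CPM in replicates 2 and 8 against 6.58 to 9.71 CPM (edgeR adjusted p = 0.270). NR1H3, which encodes liver X receptor alpha, had 7.76 and 10.1 CPM there against 3.37 to 4.24 CPM (edgeR adjusted p = 0.0936). NR1H2, which encodes the beta form, had 80.4 and 88.4 CPM there against 45.0 to 61.4 CPM, but on CQN its values of 7.04 and 6.98 lay within the range of the other libraries, 6.87 to 7.11 (edgeR adjusted p = 0.776).

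**Figure D5:**
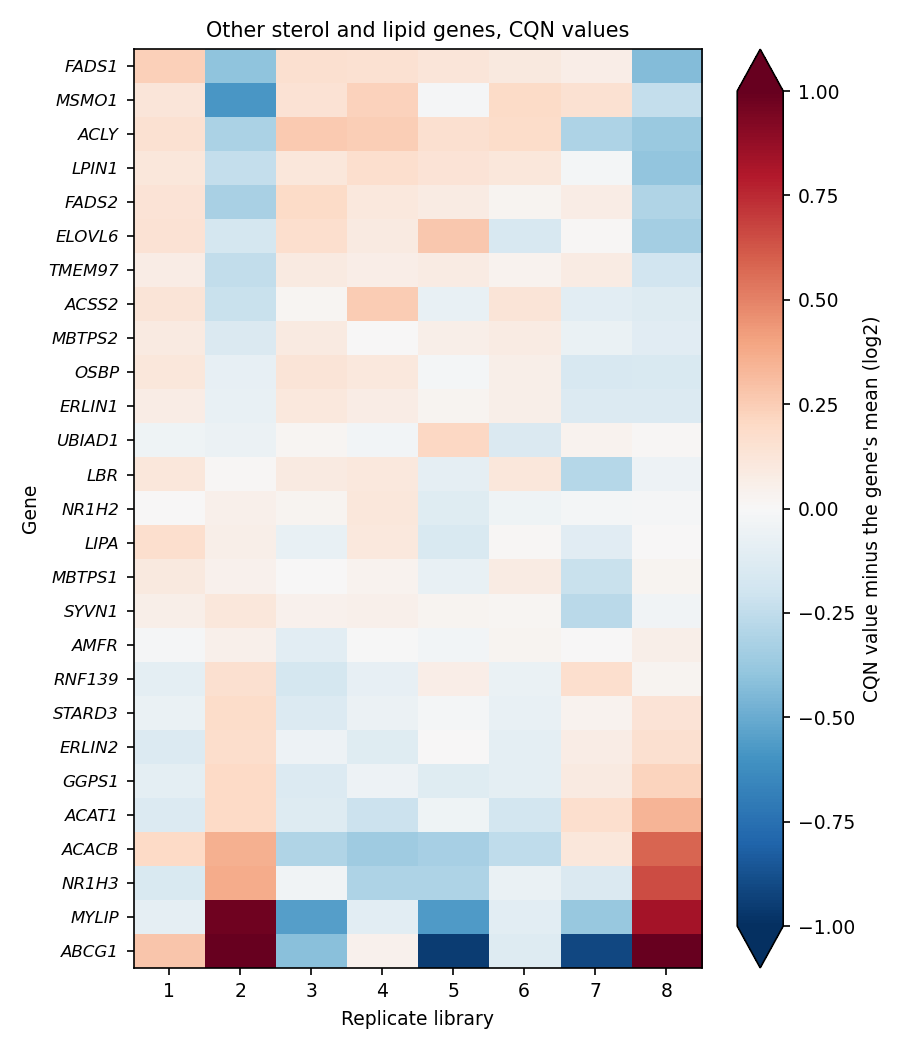
CQN value minus the gene's own mean (log2, colour) for 27 further sterol and lipid genes in rows, sorted by their summed deviation in replicates 2 and 8, and the 8 libraries in columns. FADS1, MSMO1 and ACLY at the top are lowest in replicates 2 and 8, ACLY only just below replicate 7. ABCG1 and MYLIP at the bottom are highest in replicates 2 and 8.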

How the data were processed

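The authors deposited raw counts for each gene, per the file headers. The submitters' processing notes name CASAVA 1.9, TopHat2 2.0.6, HTSeq and hg19, and the use of strand is not given in the sources used here. The log2 CQN values were deposited by the authors in columns that the file headers call CQN-normalised (conditional quantile normalisation). Their log base was read from the values. All 16 columns matched samples, with 0 others.

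CPM used TMM library sizes (edgeR 4.0.16, R 4.3.3). Lengths, exons and GC content came from the canonical transcripts of GENCODE 44 on GRCh37, and all 29 genes had one. Table starts count from 0 (1 below the annotation for 5738 genes, equal for 652) and are printed 1-based. Variation was tested with an intercept-only edgeR fit over all detected genes, whose trended dispersion served the goodness-of-fit test with Benjamini-Hochberg adjustment at 0.05. The procedure was tested on simulated data. Length and GC trends were natural splines with 4 degrees of freedom.

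Every one of the 29 genes is named. Values in all libraries are given for genes of the pairs, relations and variation calls and for the 3 most and least variable. Gene and marker lists were chosen with earlier results of these data known. A pooled correlation was planned but replaced, since 2 libraries stood apart. A gene of the further list is not reported here, and another was not analysed.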

Additional observations from a re-analysis of the deposited data

How the results depend on the processing

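No paired analysis was possible because there was 1 group. The number of the 29 genes above the variation trend was 8 with the DESeq2 1.42.0 fitted trend, under which 2811 rather than 558 of all genes passed (23.5%). It was 5 with the length and GC trend removed (all genes, 6.57%). With single libraries left out it was 1 to 2 (all genes, 3.15% to 4.09%). It was 1 without replicates 2 and 8 together, where 335 of all genes passed (2.75%). The last setting was added after seeing the data, as was the order of replicates 2 and 8 and its alternatives. The log2 ratio of SCD to FASN lost its call on CPM (0.15) and CQN values (0.086). With the length and GC trend removed, r changed sign for HMGCS1 with IDI1 (0.52), STARD4 (-0.42) and SREBF2 (-0.36) and for FASN with SCD (0.10), none of which passed. Leaving single libraries out of these relations was planned and not run; the values without the 2 farthest libraries stand beside them. Without replicates 2 and 8 the median SD of the 29 genes was 0.11 on log2 CPM and 0.099 on CQN. The order of replicates 2 and 8 held for 16 genes on CPM and for 22 with the trend removed. The causes were not tested. The other 176 recomputed values of these main results kept their direction and side of the threshold, or their size. In the variation tests of HMGCS1, SQLE, CYP51A1, STARD4, SCD and ACACA taken singly, 83 recomputed values kept their side of the threshold. Another 5 gained a call and 2 lost it. Of the 29 genes, HSD17B7 had the largest counting error.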
